A study of Mus musculus with 12 samples.

Results

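The immediate-early transcription factors described here are 10 genes, Fos, Fosb, Fosl2, Jun, Junb, Atf3, Egr1, Egr2, Nr4a1 and Ier2, followed through cultured primary mouse astrocytes. They were chosen by name, with no measured value in the rule, as the rows of the raw count table that carry these gene symbols. Earlier results of these data were known when the members were chosen. All 10 were found among the 18903 genes of the table, and all 10 passed the filter on low counts that left 17938 genes for testing.

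The series holds bulk RNA-seq of 12 libraries in 6 groups, with 2 biological replicates in each group. Astrocytes were taken from brains of wild-type (WT, hGFAP-cre::Rack7 +/+) and conditional knockout (cKO, hGFAP-cre::Rack7 fl/fl) mice at postnatal day 1 (P1), 6 (P6) or 8 (P8), so that WT cells carried the Cre transgene as well. The purpose was to compare transcription with and without RACK7, a chromatin reader encoded by Zmynd8, over the days in which cortical astrocytes are generated. The hGFAP promoter drives Cre in embryonic neural stem cells that give rise to part of the neurons and part of the glia, and tissue was freed of meninges, dissociated with an enzyme, grown, shaken to detach microglia and oligodendrocytes, and grown again to confluence. The floxed line was made in C57BL/6 zygotes. P1, P6 and P8 name the day of dissection and not the age of the cells at harvest. Cultures of different days were separate, so day cannot be told apart from culture or harvest. Which groups were cultured or harvested together is not stated in the sources used here. In bulk RNA, fewer cells expressing a gene and less of its RNA per cell cannot be told apart.

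Immediate-early genes are transcribed within minutes of a stimulus without new protein synthesis, through kinase cascades that act on factors already bound at their promoters, such as SRF with its ternary complex partners and CREB. Their products are mostly transcription factors: FOS and JUN proteins pair through leucine zippers to form AP-1, ATF3 is a related zipper protein, EGR proteins bind DNA through zinc fingers, and NR4A1 is an orphan nuclear receptor whose activity follows its amount. In astrocytes these genes are known to respond to growth factors, calcium signals, injury and tissue dissociation, and most of their transcripts are short-lived.

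Library totals lay between 54413504 and 89183250 counts. Zmynd8, the targeted gene, had a higher whole-gene level in the libraries labelled cKO at each day. In CPM, which are counts scaled to a library of 1000000 counts, its means were 136 in WT and 214 CPM in cKO at P1, 115 and 236 CPM at P6, and 102 and 166 CPM at P8. The log2 fold changes were 0.65, 1.04 and 0.70, with adjusted p = 3.16e-05, 4.97e-07 and 3.78e-06 in the edgeR quasi-likelihood fit. A whole-gene count does not test the floxed exons, which are only part of the gene, so WT and cKO below mean the libraries labelled so. The paper checked the RACK7 protein level of WT and cKO primary astrocytes by immunoblot. Astrocyte markers were present throughout, but not at like levels. Gfap was at 176 CPM or more in every library, while S100b was at 0.995 to 2.44 CPM at P1. Slc1a2 was at 12.6 CPM in P1 cKO replicate 1 and 84.2 CPM in replicate 2. Markers of other cells moved with the groups. The summed level of 6 fibroblast markers, led by Col1a1 and Col1a2, was 398 to 412 CPM in P1 WT, 2446 to 2477 in P1 cKO, 6629 to 6676 in P6 WT, 2509 to 2682 in P6 cKO, 25630 to 25750 in P8 WT and 8179 to 8429 in P8 cKO, and all 6 rose in cKO at P1, all 6 fell at P6 and 5 fell at P8. Lum was at 0 in both P6 cKO libraries. Microglia markers, 9 in number and led by C1qa and C1qc, summed to 2450 to 3769 CPM in 5 groups and to 5114 to 5122 CPM in P8 cKO. Astrocyte markers, led by Aqp4 and Gfap, were at 687 to 703 CPM in P8 cKO against 1566 to 1949 CPM in P8 WT. At P8 in cKO, 6 of the 9 microglia markers rose and Tmem119 fell, from 61.77 and 57.75 to 24.3 and 21.5 CPM. Of 9 astrocyte markers, 5 fell at P8, while Aldh1l1 was higher in cKO, at 73.3 and 72.1 CPM against 52.35 and 51.3 CPM.

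Promoter windows from RefSeq (GRCm38.p6), 250 bases before to 50 after a transcription start, matched 8 of the 10 members, all except Egr1 and Ier2. The 5 stretches below, read 5′ to 3′ on the strand of the gene, end 11 bases before the start and are 120 bases long. Fos, Fosb, Egr2 and Nr4a1 are shown because they had 4 of the 5 largest rises from P1 to P6 in WT, and Junb because it had the smallest. Capitals mark TGACG on either strand (the core of the CREB site), TATAAA on the gene's own strand, and the CArG box, the core of the SRF site.
Fos: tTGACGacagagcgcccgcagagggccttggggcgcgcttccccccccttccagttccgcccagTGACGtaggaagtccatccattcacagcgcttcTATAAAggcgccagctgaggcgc
Fosb: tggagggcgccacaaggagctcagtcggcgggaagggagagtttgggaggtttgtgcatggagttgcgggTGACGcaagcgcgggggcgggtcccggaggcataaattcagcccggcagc
Egr2: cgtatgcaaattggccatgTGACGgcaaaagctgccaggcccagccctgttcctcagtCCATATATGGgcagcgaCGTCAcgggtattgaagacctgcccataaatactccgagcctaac
Nr4a1: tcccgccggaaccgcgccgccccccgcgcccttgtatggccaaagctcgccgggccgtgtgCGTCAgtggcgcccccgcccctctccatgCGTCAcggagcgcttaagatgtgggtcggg
Junb: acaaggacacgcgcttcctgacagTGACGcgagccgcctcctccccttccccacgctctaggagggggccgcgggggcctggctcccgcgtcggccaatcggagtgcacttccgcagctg

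These stretches are chr12:85473760-85473879 (plus strand) for Fos, chr7:19310056-19310175 (minus strand) for Fosb, chr10:67537739-67537858 (plus strand) for Egr2, from window 3 of its 5, chr15:101266716-101266835 (plus strand) for Nr4a1 and chr8:84978759-84978878 (minus strand) for Junb. In Fos the nearer TGACG begins 66 bases before the start and TATAAA begins 33 bases before it. In Fosb the match begins 60 bases before the start. Egr2 has a CArG box 72 bases before the start, followed by TGACG on the other strand at 55, and Nr4a1 has matches at 69 and 40 bases. Over the whole windows, TGACG was found in 6 of the 8 members and in 8 of their 12 windows, against 20.8% of all 32851 windows. Nr4a1 held 4 copies, and windows 1 and 2 of Egr2 held none. The CArG box was found in Egr2 only among the 8, in 4 of its 5 windows that overlap in part, against 1.63% of all windows. TATAAA was found in Fos and Junb, against 8.32% of all windows. The palindrome TGACGTCA, which contains TGACG on both strands (1.79% of all windows), and the AP-1 motif TGANTCA (7.81%) were in none of them, and the EGR motif GCGNGGGCG (5.55%) was in Fosb, Fosl2 and Nr4a1. A match describes letters in these windows and not binding. Sites farther than 250 bases before the start were not searched, so a motif not found here may lie outside the windows.

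On GRCm38, the members lie on 9 chromosomes: Fos at chr12:85473890-85477273, Fosb at chr7:19302696-19310051, Fosl2 at chr5:32135801-32157842, Jun at chr4:95049034-95052222, Junb at chr8:84974484-84978718, Atf3 at chr1:191170296-191218039, Egr1 at chr18:34859823-34864984, Egr2 at chr10:67535475-67542188, Nr4a1 at chr15:101254269-101274795 and Ier2 at chr8:84661331-84662852. The table holds 1 count per gene, which does not separate its transcripts. Jun overlaps the antisense gene Junos, Junb overlaps Prdx2 and Atf3 overlaps Gm24748, each on the opposite strand. No source used here states whether the counting used strand, and reads in those overlaps cannot be assigned with certainty.

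All 10 members had their highest mean in P6 WT, while the lowest mean was in P1 WT for 5, in P8 WT for 3 and in P1 cKO and P8 cKO for 1 each. Their summed level was 503 to 525 CPM in P1 WT, 602 to 609 in P1 cKO, 2199 in each P6 WT library, 1322 to 1638 in P6 cKO, 774 to 829 in P8 WT and 812 to 836 in P8 cKO. In what follows a gene is said to have risen or fallen where the Benjamini-Hochberg adjusted p of edgeR's quasi-likelihood test was under 0.05 and the fold change at least 1.5, over all tested genes.

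**Figure D1:**
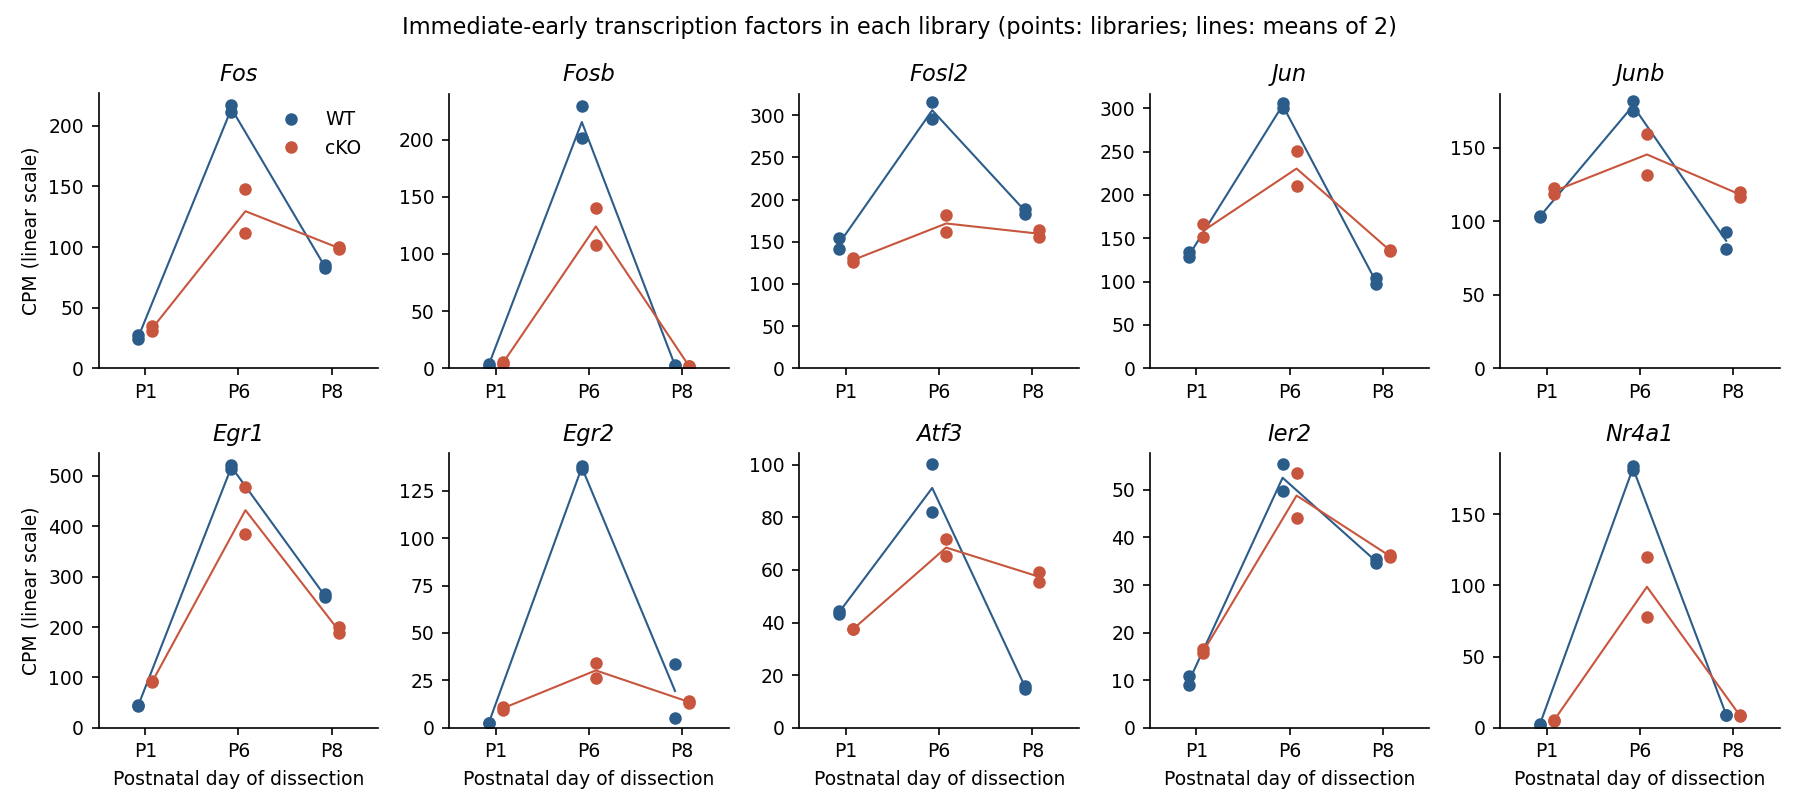
Level of each immediate-early transcription factor in CPM (vertical axis, linear, from 0) by day of dissection (horizontal axis), with 1 point per library and lines through the means of 2 libraries, WT in blue and cKO in red. The highest mean of all 10 genes is in P6 WT, and Fosb and Nr4a1 are below 10 CPM at P1 and P8 in both genotypes.

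Between genotypes, the direction turned with the day. At P1, 3 of the 10 members rose in cKO (Egr1, Nr4a1 and Ier2) and none fell, beside 4.01% of all tested genes that rose and 0.892% that fell. At P6, 5 fell (Egr2, Nr4a1, Fosl2, Fosb and Fos) and none rose, beside 6.38% of all genes that fell and 7.16% that rose, and all 10 had a negative log2 fold change. At P8, Atf3 alone rose and none fell, beside 11.2% and 8.37% of all genes. The median log2 fold change of the members was 0.49, -0.57 and -0.05 at P1, P6 and P8, and over all genes it was 0.00, 0.00 and 0.01. At an unadjusted p under 0.05 without the fold rule, 2 members were lower in cKO at P1, none was higher at P6 and 2 were lower at P8, and DESeq2 called none in these directions with the fold rule. Fits that each left out 1 library called 2 to 4 members at P1, 2 to 5 at P6 and 1 to 2 at P8: at P6 the count was 3 without P6 WT replicate 1 and 2 without P6 cKO replicate 2, and at P8 it was 2 without either P8 WT library, where Egr2 joined Atf3.

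**Figure D2:**
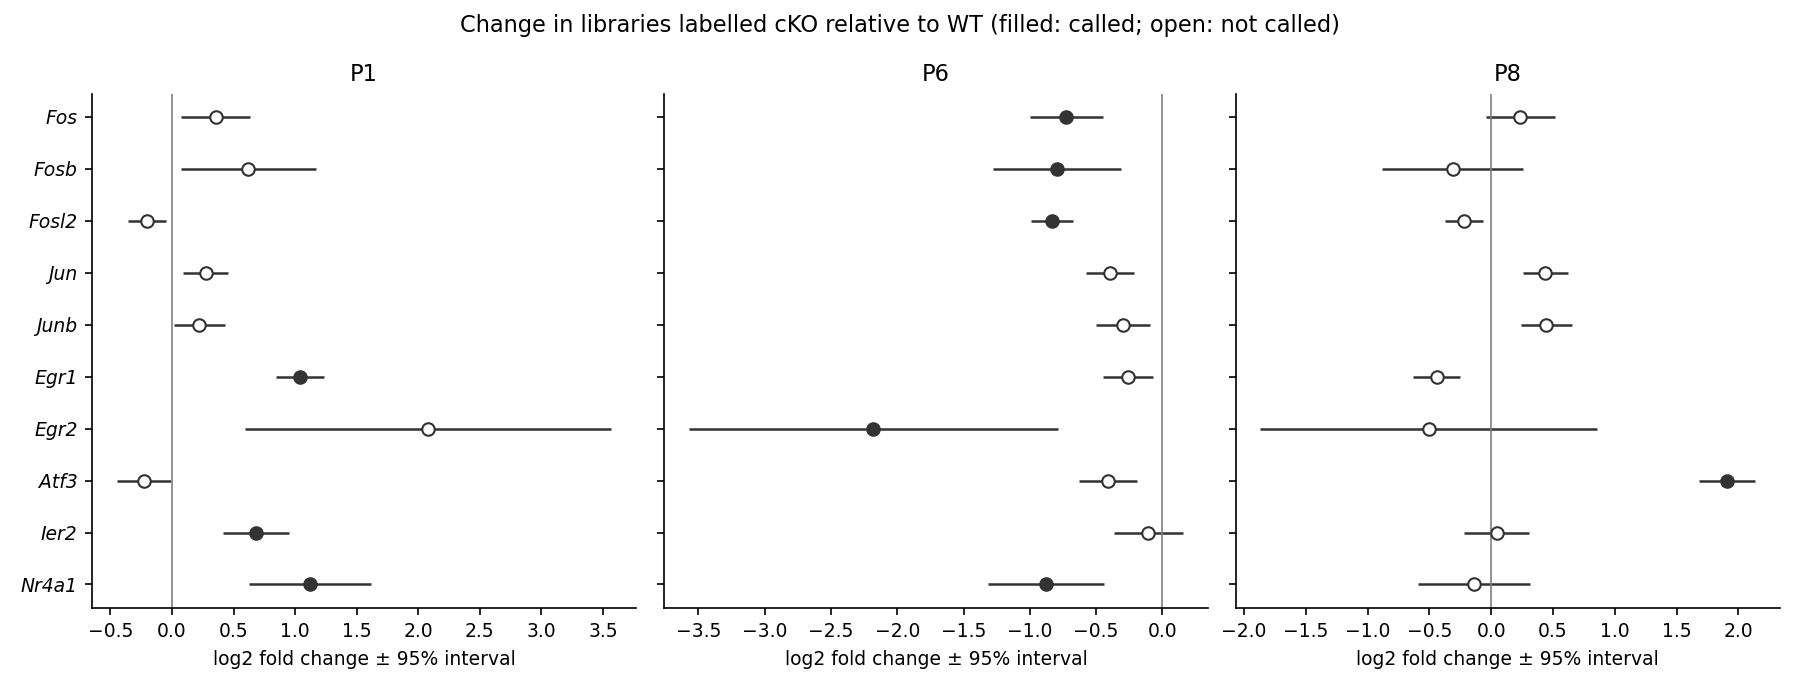
Log2 fold change of cKO relative to WT (horizontal axis) for each member (vertical axis) at P1, P6 and P8, with 95% intervals from the fit, filled where called and open where not. The panels have their own ranges. The 10 points lie left of 0 at P6, while at P8 the point of Atf3 lies at 1.91.

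Fos, the founding AP-1 partner, was at 24.1 and 27.4 CPM in P1 WT and at 30.9 and 35.1 CPM in P1 cKO. At P6 it was at 211 and 217 CPM in WT and at 148 and 111 CPM in cKO, and at P8 at 83.1 and 85.4 CPM in WT and 98.6 and 100 CPM in cKO. The genotypes did not overlap at any day, and the order was turned only at P6, where WT was higher. At P6 Fos fell in cKO, with a log2 fold change of -0.73 ± 0.12 (SE, n = 2 libraries per group; edgeR adjusted p = 0.00208). At P1 and P8 the changes of 0.36 ± 0.12 and 0.24 ± 0.12 were not called (edgeR adjusted p = 0.125 and 0.174). Without P6 cKO replicate 2, the lower cKO library, the change at P6 was -0.54 (adjusted p = 0.006), below the fold required.

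Fosb, which encodes a FOS protein known for a long-lived splice form in chronically stimulated neurons, was at a few CPM outside P6. Its libraries were at 3.37 and 2.20 CPM in P1 WT and at 5.13 and 3.35 CPM in P1 cKO. At P6 they were at 229 and 202 CPM in WT against 141 and 108 CPM in cKO, and at P8 at 2.37 and 2.47 CPM in WT against 1.91 and 1.99 CPM in cKO. Genotypes overlapped at P1 and were apart at P6 and P8, with WT higher. Fosb fell in cKO at P6 by 0.80 on the log2 scale (edgeR adjusted p = 0.0227), and the adjusted p was 0.109 without P6 WT replicate 1 and 0.14 without P6 cKO replicate 2. Whole-gene counts do not separate its splice forms.

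Fosl2, encoding the FOS-related protein FRA2, varied least among the FOS members over the groups. It was at 141 and 154 CPM in P1 WT and 131 and 126 CPM in P1 cKO, at 316 and 296 CPM in P6 WT and 182 and 162 CPM in P6 cKO, and at 189 and 183 CPM in P8 WT and 156 and 163 CPM in P8 cKO. WT was above cKO at each day with no overlap, and the gap was widest at P6. It fell in cKO at P6 with a log2 fold change of -0.83 ± 0.07 (SE; edgeR adjusted p = 2.49e-05) and stayed called in each fit that left out a library. The changes of -0.20 at P1 and -0.22 at P8 were below the fold required.

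Jun and Junb encode the AP-1 partners of the FOS proteins, JUN being a strong and JUNB a weak activator that can oppose JUN. Jun was at 128 and 135 CPM in P1 WT and 151 and 166 CPM in P1 cKO, at 300.4 and 307 CPM in P6 WT and 250.3 and 211 CPM in P6 cKO, and at 104 and 97.0 CPM in P8 WT and 137 and 135 CPM in P8 cKO. Junb was at 103 CPM in both P1 WT libraries and at 122 and 119 CPM in P1 cKO, at 175 and 182 CPM in P6 WT and 160 and 131 CPM in P6 cKO, and at 92.5 and 81.0 CPM in P8 WT and 117 and 120 CPM in P8 cKO. Both genes were higher in cKO at P1 and P8 and higher in WT at P6, without overlap, but by less than the fold required each time. The largest of these changes were 0.44 for Jun (edgeR adjusted p = 0.00254) and 0.45 for Junb (adjusted p = 0.00431) on the log2 scale, both at P8.

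Atf3, a stress-induced repressor and activator of the ATF/CREB family of zipper proteins, was the member that stood apart at P8. Its libraries were at 44.4 and 43.4 CPM in P1 WT and 37.4 and 37.6 CPM in P1 cKO, and at 82.1 and 100 CPM in P6 WT and 71.7 and 65.2 CPM in P6 cKO. At P8 they were at 14.6 and 16.0 CPM in WT against 55.4 and 59.3 CPM in cKO. WT was the higher genotype at P1 and P6 and the lower at P8. Atf3 rose 3.75-fold in cKO at P8, with a log2 fold change of 1.91 ± 0.10 (SE; edgeR adjusted p = 8.54e-07), and was called in each fit that left out a library. At P1 and P6 the log2 fold changes of -0.23 and -0.41 were not called. From P6 to P8 WT dropped to below its P1 level, from 91.1 ± 12.7 to 15.3 ± 0.94 CPM (mean ± SD, n = 2), whereas cKO went from 68.5 ± 4.6 to 57.4 ± 2.7 CPM.

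Egr1, a zinc-finger factor that couples growth signals to transcription, was the most abundant member per kilobase at P6 in both genotypes. It was at 43.9 and 45.1 CPM in P1 WT and 92.8 and 90.3 CPM in P1 cKO, at 514 and 522 CPM in P6 WT and 478 and 386 CPM in P6 cKO, and at 266 and 259 CPM in P8 WT and 187 and 199.7 CPM in P8 cKO. cKO was above WT at P1 and below it at P6 and P8, without overlap. Egr1 rose 2.06-fold in cKO at P1, with a log2 fold change of 1.04 ± 0.09 (SE; edgeR adjusted p = 7.69e-05), in each fit that left out a library. The changes of -0.26 at P6 and -0.44 at P8 were below the fold required.

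Egr2, known as KROX20 and best studied as the regulator of myelin genes in Schwann cells, had the largest genotype difference of the members at P6. It was at 2.41 and 2.43 CPM in P1 WT and 9.61 and 10.9 CPM in P1 cKO, at 136 and 138 CPM in P6 WT and 34.4 and 26.2 CPM in P6 cKO, and at 33.6 and 5.31 CPM in P8 WT and 14.2 and 13.0 CPM in P8 cKO. The P8 WT libraries lay on either side of both P8 cKO libraries. Egr2 was 4.53-fold lower in cKO at P6, with a log2 fold change of -2.18 ± 0.62 (SE; edgeR adjusted p = 0.0286), and not called at P1, where cKO was 4.23-fold higher (adjusted p = 0.0907), nor at P8 (log2 fold change -0.51, adjusted p = 0.576).

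The spread of Egr2 in P8 WT entered the error of all its comparisons. The log2 ratio of its P8 WT libraries was 2.66, rank 60 of 15146 genes at 1 CPM or more by size, and 0.673% of these genes differed more than 4-fold between the same libraries, as 0.535% to 0.878% did in the other groups. Without P8 WT replicate 1 or replicate 2, Egr2 rose in cKO at P1 (edgeR adjusted p = 7.5e-05 and 7.3e-05, with the log2 fold change still 2.08). At P8 the same fits gave opposite directions, 1.36 without replicate 1 (adjusted p = 0.000613) and -1.30 without replicate 2 (adjusted p = 0.00041), with the remaining library assumed to vary like the other groups. At P6 the call was lost without any 1 of the 4 P6 libraries, with adjusted p from 0.0769 to 0.144 and log2 fold changes from -2.39 to -2.00.

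Nr4a1 (NUR77) rose about as far as Fosb from P1 to P6 in WT. It was at 2.75 and 1.89 CPM in P1 WT and 4.79 and 5.21 CPM in P1 cKO, at 184 and 181 CPM in P6 WT and 120.02 and 77.9 CPM in P6 cKO, and at 9.12 and 9.35 CPM in P8 WT and 8.68 and 8.12 CPM in P8 cKO. The genotypes did not overlap at any day: cKO was above WT at P1 and below it at P6 and, by little, at P8. Nr4a1 rose in cKO at P1 with a log2 fold change of 1.12 ± 0.22 (SE; edgeR adjusted p = 0.0127) and fell at P6 with one of -0.88 ± 0.19 (adjusted p = 0.00882). The rise at P1, with 154 to 297 counts per library, was not called with the P1 libraries alone (adjusted p = 0.0741), without P1 WT replicate 2 (adjusted p = 0.0848) or without P1 cKO replicate 2 (adjusted p = 0.067).

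Ier2, a nuclear immediate-early protein linked to cell motility, was at 9.04 and 11.0 CPM in P1 WT and 16.5 and 15.6 CPM in P1 cKO. At P6 it was at 49.7 and 55.4 CPM in WT and 53.5 and 44.1 CPM in cKO, and at P8 at 35.4 and 34.7 CPM in WT and 36.4 and 35.8 CPM in cKO. The genotypes were apart at P1 and, by little, at P8, with cKO higher, and overlapped at P6. Ier2 rose in cKO at P1 with a log2 fold change of 0.68 ± 0.12 (SE; edgeR adjusted p = 0.00715), and the adjusted p was 0.0504 without P1 WT replicate 1 and 0.0548 with the P1 libraries alone. At P6 and P8 the changes were -0.11 (95% interval from -0.37 to 0.16) and 0.04 (-0.22 to 0.31), so that a 1.5-fold difference lay outside both intervals.

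In P6 cKO, replicate 1 was above replicate 2 for all 10 members. The median size of the log2 ratio between these libraries was 0.30 for the members and 0.16 over all tested genes, against 0.05 and 0.15 in P6 WT. Both P6 cKO libraries were below both P6 WT libraries for every member except Ier2. The share of all tested genes that lay apart in this way is not given here, so no result is read from it.

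Over the days, the members went up and down together in WT. From P1 to P6 in WT all 10 rose and none fell, beside 12.2% of all genes that rose and 10.9% that fell. The rises were 79.1-fold for Nr4a1, 78.0-fold for Fosb, 56.6-fold for Egr2, 11.6-fold for Egr1, 8.32-fold for Fos and 5.24-fold for Ier2, while Jun, Atf3, Fosl2 and Junb rose 1.73- to 2.31-fold. The median log2 fold change was 2.72 for the members and 0.00 for all genes. From P6 to P8 in WT, 9 fell and none rose, beside 10.3% and 8.66% of all genes, and Ier2, with a log2 fold change of -0.58 (edgeR adjusted p = 0.00398), lay just under the fold required. Fosb was 88.95-fold lower at P8 than at P6, Nr4a1 19.7-fold, Egr2 7.08-fold and Atf3 5.96-fold lower. The log2 fold change of Egr2 in this step ran from -4.69 without P8 WT replicate 1 to -2.03 without P8 WT replicate 2, and it was called in both fits.

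In cKO the same course was flatter by the fitted changes, except for Egr1 from P6 to P8 (log2 fold change -1.16 in cKO and -0.98 in WT). The interaction test given below called the difference between genotypes for 9 of 10 members in the first step and 5 in the second. From P1 to P6, 6 members rose (Fosb, Nr4a1, Egr1, Fos, Ier2 and Atf3) and none fell, beside 11.0% and 10.4% of all genes, with 29.2-fold for Fosb, 19.8-fold for Nr4a1, 4.72-fold for Egr1, 3.93-fold for Fos, 3.03-fold for Ier2 and 1.83-fold for Atf3. Fosl2, Jun and Junb had log2 fold changes of 0.42, 0.54 and 0.27, below the fold required, and Egr2 had 1.56 with edgeR adjusted p = 0.0751. From P6 to P8, 4 members fell (Fosb, Nr4a1, Egr1 and Jun) and none rose, beside 12.2% and 11.9% of all genes. Fosb was 63.6-fold, Nr4a1 11.8-fold, Egr1 2.23-fold and Jun 1.69-fold lower at P8. Fos, Fosl2, Junb, Atf3 and Ier2 had log2 fold changes between -0.44 and -0.11 in this step. Egr2 had -1.15 (edgeR adjusted p = 0.171), and was called with the P6 and P8 cKO libraries alone (adjusted p = 0.00196). In neither step, and in neither genotype, was a member called in the opposite direction by DESeq2 or at an unadjusted p under 0.05. The 2 steps share the P6 libraries, so a high P6 value enters both.

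**Figure D3:**
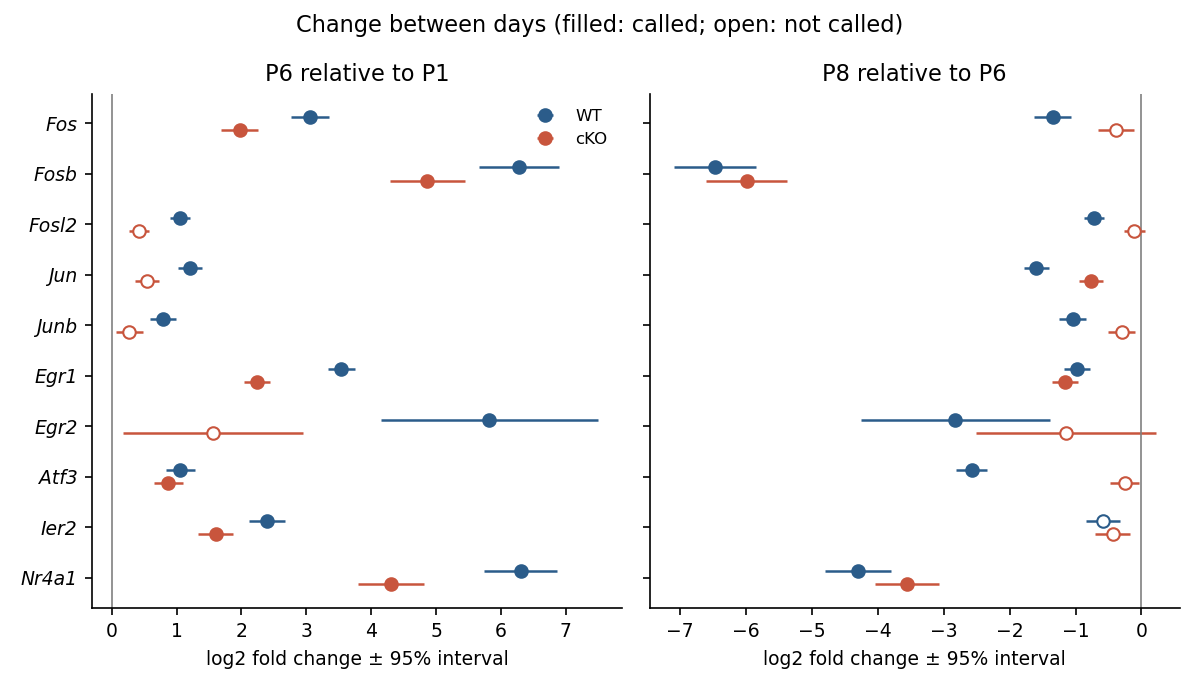
Log2 fold change between days (horizontal axis) for each member (vertical axis), P6 relative to P1 and P8 relative to P6, WT in blue and cKO in red, with 95% intervals from the fit, filled where called and open where not. Every point lies right of 0 in the first step and left of 0 in the second, and for each member except Egr1 the WT point lies farther from 0 than the cKO point in both.

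The difference of the genotype effect between days was tested as an interaction in the same fit, with the adjusted p alone deciding. From P1 to P6 the effect of the cKO label turned downward for 9 of 10 members, all but Atf3, beside 8.19% of all genes in that direction and 7.12% in the other. The change of the effect was -4.26 for Egr2, -2.00 for Nr4a1, -1.42 for Fosb, -1.30 for Egr1 and -1.08 for Fos on the log2 scale, and between -0.79 and -0.52 for Ier2, Jun, Fosl2 and Junb (edgeR adjusted p from 8.64e-05 for Egr1 to 0.0246 for Junb). For Atf3 it was -0.19 (adjusted p = 0.449). From P6 to P8 it turned upward for 5 members and downward for none, beside 12.6% and 8.83% of all genes: 2.32 for Atf3, 0.96 for Fos, 0.84 for Jun, 0.74 for Junb and 0.61 for Fosl2. Between P1 and P8, Atf3 turned upward by 2.13, and Egr1 (-1.48), Nr4a1 (-1.26) and Ier2 (-0.64) downward, beside 14.0% and 11.7% of all genes. These 3 comparisons share libraries.

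Per kilobase of exon, the order of the members changed at P6. In P1 WT the highest levels were those of Junb (44.9 CPM per kilobase) and Jun (41.1), followed by Atf3 (20.4), Fosl2 (15.3), Fos (10.9), Egr1 (9.92) and Ier2 (6.57), with Egr2, Nr4a1 and Fosb below 1 and Nr4a1 overlapping both of its neighbours. In P6 WT the order was Egr1 (116), Jun (95.2), Fos (91.1), Junb (77.7) and Nr4a1 (51.9), and Atf3, Egr2, Ier2, Fosb and Fosl2 lay between 31.6 and 42.3, where Atf3 and Egr2 overlapped, as did Ier2, Fosb and Fosl2. In P6 cKO Egr1 (96.4) and Jun (72.3) also led, and Egr2 (8.91) was the lowest. At P8 Egr1 (58.6) led in WT and Junb (51.4) in cKO, with Fosb the lowest in both (0.387 and 0.312).

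Family make-up, as shares of the summed CPM per kilobase, differed between the days. Among FOS genes, Fosl2 held 52.1% and 52.4% in the P1 WT libraries and 18.2% and 19.0% in P6 WT, while Fosb went from 1.15% and 1.94% to 19.3% and 21.3%. In P6 cKO the share of Fosb was 18.6% and 18.8%, close to WT, although its level was lower. Fosl1, the gene of FRA1, held 12.3% and 13.3% in P6 cKO against 7.26% and 7.52% in P6 WT. Among JUN genes, Jun held 33.2% to 46.4% and Junb 37.1% to 41.8% over all libraries. Among EGR genes, Egr1 held 83.7% to 90.4% at P1 and 57.1% and 57.7% in P6 WT, where Egr2 held 20.0% and 20.2% and Egr3 held 20.5% and 21.2%. In P6 cKO Egr1 kept 78.4% and 79.5%, with Egr2 at 7.12% and 7.43%. Among NR4A genes, Nr4a3 held 55.6% and 64.5% in P1 WT, and Nr4a1 89.3% to 93.1% in all P6 libraries.

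**Figure D4:**
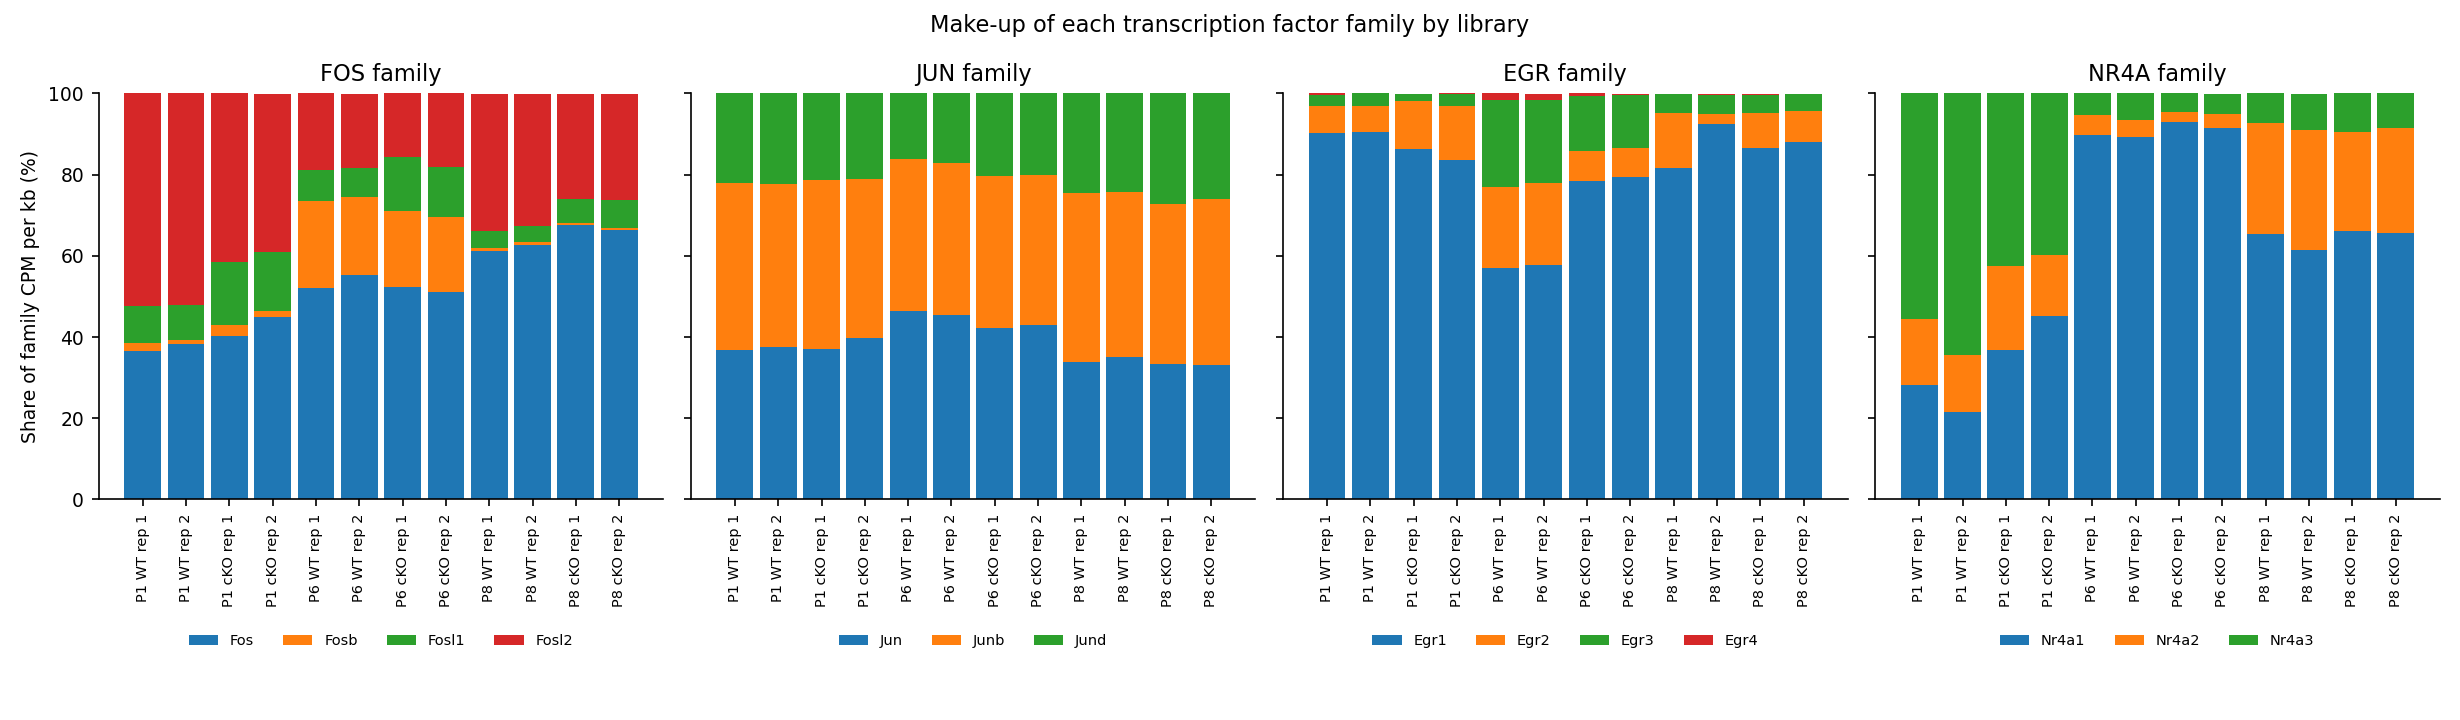
Share of each gene in the summed CPM per kilobase of its family (vertical axis, percent, from 0 to 100), 1 bar per library, for the FOS, JUN, EGR and NR4A families. Fosb, Egr2, Egr3 and Nr4a1 take larger shares at P6 than at P1 in WT, and Egr2 and Egr3 less in P6 cKO than in P6 WT.

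The other genes of the response were read from lists, also by counts. Beside these lists and the marker lists, 4.01%, 7.16% and 11.2% of all tested genes rose in cKO at P1, P6 and P8. The shares that fell were 0.892%, 6.38% and 8.37%. Of 25 other immediate-early transcription factors, 5 rose at P1 in cKO and none fell by edgeR, by DESeq2 or at an unadjusted p under 0.05, 3 rose and 7 fell at P6, and 7 rose and 1 fell at P8, with median log2 fold changes of 0.23, -0.23 and 0.17. Those that fell at P6 were Egr4, Nr4a2, Egr3, Nr4a3, Klf4, Irf1 and Batf. Egr3, needed for muscle spindle development, was at 188 and 182 CPM in P6 WT and 81.2 and 62.3 CPM in P6 cKO. Npas4, an activity-dependent factor of neurons, went the other way at P6, with 9.56 and 10.2 CPM in WT and 20.9 and 16.3 CPM in cKO (log2 fold change 0.92, edgeR adjusted p = 0.00601), and Maff, a small MAF protein, rose as well (0.79, adjusted p = 0.000339). Npas4 also rose at P1 (1.02) and P8 (1.69), Maff at P8 (1.31) and Fosl1 at P1 (0.94), and Btg2 fell at P8 (-0.67). From P1 to P6 in WT, 18 of the 25 rose and 2 fell.

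Upstream of the members, 27 genes for MAP kinases, RSK and MSK kinases, SRF, its partners and CREB factors were mostly not called. None rose or fell at P1 or P6 by edgeR's quasi-likelihood test or by DESeq2, and at an unadjusted p under 0.05 without the fold rule 1 was higher and 4 lower in cKO at P1 and 2 higher and 3 lower at P6. At P8 Rps6ka1, the gene of RSK1, rose (log2 fold change 0.79, adjusted p = 3.29e-05). From P1 to P6 in WT, Srf rose by edgeR (0.59) and not by DESeq2, and Mapk10 and Rps6ka1 fell (-0.77 and -1.35). Their median log2 fold changes between genotypes were -0.03, -0.02 and 0.12 at P1, P6 and P8. RNA levels carry no information on phosphorylation of these kinases and factors.

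Of 13 feedback inhibitors of the pathway, 2 rose at P1, 4 rose and 2 fell at P6, and 10 rose at P8 in cKO, with median log2 fold changes of 0.28, 0.37 and 0.82. At P6, Dusp10 (log2 fold change 1.28) and Spry4 (1.22) rose and Errfi1 (-1.07) and Dusp4 (-0.90) fell. Errfi1, which encodes an inhibitor of the EGF receptor, was at 134 and 126 CPM in P6 WT and 63.6 and 60.5 CPM in P6 cKO. Dusp4, a nuclear MAP kinase phosphatase, rose at P8 by 1.79, from 6.79 and 7.15 CPM in WT to 23.2 and 24.9 CPM in cKO, and Spry2 by 1.17. Errfi1 (0.96) and Spry1 (0.68) were those that rose at P1.

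Of 32 other immediate-early and delayed primary response genes, 11 rose and none fell at P1 by edgeR or DESeq2 (1 was lower at an unadjusted p under 0.05), 7 rose and 3 fell at P6, and 16 rose and 1 fell at P8, with median log2 fold changes of 0.38, 0.00 and 0.65. Ptgs2, the inducible cyclooxygenase gene, was at 23.4 and 22.2 CPM in P1 WT and 105 and 108 CPM in P1 cKO, and at 387 and 358 CPM in P6 WT and 34.4 and 28.2 CPM in P6 cKO. It rose at P1 (log2 fold change 2.23, edgeR adjusted p = 1.15e-06) and was 11.9-fold lower in cKO at P6 (adjusted p = 3.19e-08). Ctgf rose at P1 (2.04), and the cytokine genes Il6 (2.28) and Lif (1.73) rose at P6, when Plk2 fell (-0.63). At P8 Ccl2 (2.68) and Il6 (2.12) rose and Plk2 fell (-1.05).

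**Figure D5:**
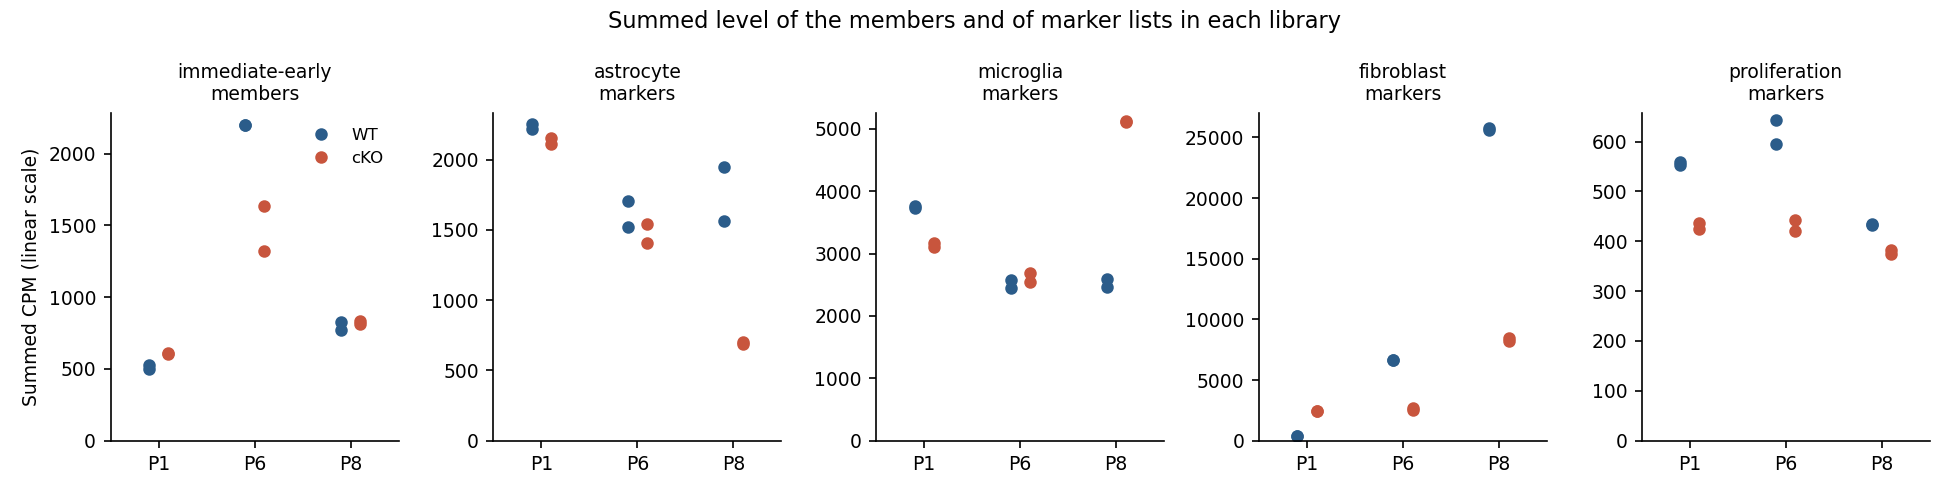
Summed CPM (vertical axis, linear, from 0) of the 10 members and of astrocyte, microglia, fibroblast and proliferation markers by day of dissection (horizontal axis), with 1 point per library, WT in blue and cKO in red. The members peak at P6, and fibroblast markers are highest in P8 WT, at 25630 CPM or more.

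Beside these results stand the marker lists. Fibroblast markers were higher in cKO at P1 and lower at P6, as several members were. The highest sum of these markers was in P8 WT, where the members were at 774 to 829 CPM. Endothelial markers summed to 24.8 to 26.4 CPM in P1 WT, 50.8 to 54.5 in P1 cKO, 121 to 125 in P6 WT, 60.9 to 67.0 in P6 cKO, 149.6 to 163 in P8 WT and 42.8 to 44.3 CPM in P8 cKO. Of 7 endothelial markers, 5 were in the count table, and they did not move together. In cKO, 3 rose at P1, 1 rose and 3 fell at P6, and 2 rose and 2 fell at P8. At P8, Cdh5 was at 125 and 141 CPM in WT and 10.1 and 9.59 CPM in cKO. Flt1 was at 6.36 and 3.92 CPM in P8 WT and 19.9 and 18.9 CPM in P8 cKO. Proliferation markers were at 596 to 644 CPM in P6 WT and 421 to 444 CPM in P6 cKO. The part of these cells in the members' changes was not tested. Of 13 heat shock and dissociation stress genes, 1 rose at P1, 1 rose and 2 fell at P6, and 1 rose and 1 fell at P8, with median log2 fold changes of 0.06, -0.15 and 0.01. Their sum was 4530 to 4620 CPM in P6 WT, within the 4352 to 5368 CPM of the other groups, with Hsp90ab1, a constitutive chaperone gene, at 1529 CPM or more in each library. From P1 to P6 in WT, 4 of the 13 rose (Hspb1, Hspa1b, Hspa1a and Dnajb1, log2 fold changes 1.55, 1.41, 1.33 and 1.27) and Hspa8 fell (-0.60), and in cKO 2 rose (Hspb1 and Dnajb1) and Hsph1 fell. Hspa1a, a heat-inducible chaperone gene, was at 6.49 and 5.75 CPM in P1 WT, at 16.2 and 14.6 CPM in P6 WT and at 10.7 and 9.15 CPM in P6 cKO, and the part of this response in the members' changes was not tested.

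Each library was given the mean of the members' standardised log2 CPM, and single members correlated with this mean at Pearson r from 0.68 for Atf3 to 0.98 for Nr4a1 over the 12 libraries, which share day and genotype. Of genes outside the members at 1 CPM or more, the 5 most like it were Rchy1 (r = 0.97), Arc (0.97), Hs2st1 (0.97), Polr2l (0.97) and Errfi1 (0.97). Arc, an activity-regulated gene of neurons, was at 1.26 and 1.40 CPM in P1 WT, 2.31 and 3.11 in P1 cKO, 44.5 and 47.3 in P6 WT, 38.9 and 24.6 in P6 cKO, 3.11 and 1.90 in P8 WT and 2.97 and 2.88 CPM in P8 cKO. Rchy1, a ubiquitin ligase gene, spanned 31.0 to 58.5 CPM over all libraries, and Hs2st1 94.1 to 141 CPM.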

How the data were processed

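RNA of 12 libraries (6 groups of 2 biological replicates) was measured. The authors aligned reads with HISAT2 to mm10 (GRCm38) and deposited raw counts per gene, whole numbers without normalization. For the counting program, its annotation and its strand setting, nothing is given in the sources used here. From these counts, edgeR 4.0.16 (R 4.3.3, limma 3.58.1) with TMM scaling, its filter on low counts and 6 group means over all libraries gave quasi-likelihood tests of genotype at each day, day steps and interactions, adjusted by Benjamini-Hochberg over 17938 genes. CPM used TMM-scaled library sizes, and log2 CPM a prior count of 1. Lengths are exon unions of GENCODE vM21, which held 18873 of the 18903 identifiers. Alternatives were DESeq2 1.42.0 (its test, and its size factors in edgeR), no filter, a fold change of at least 2, unadjusted p, a replicate block, the compared libraries only and each library left out. Named genes were all members, up to 2 rises and 2 falls per list and genotype comparison at 1 CPM or more, the 2 most abundant markers per list that moved, and the 5 genes most like the members. Further genes (Lum, Tmem119, Aldh1l1, S100b, Slc1a2, heat shock genes, paralogs and the genes listed as called) were named after their values were seen. Members and lists were chosen with earlier results of these data known. The fit was tested on simulated data. Intervals and p-values cover the spread between these libraries only.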

Additional observations from a re-analysis of the deposited data

Results flagged for a closer look

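The genotype effect differed between days by the interaction test of the edgeR fit, with 2 libraries per group, for 18 pairs of member and comparison. At P6 against P1 the log2 fold change of cKO relative to WT was lower by these amounts: Egr2 -4.26, Nr4a1 -2.00, Fosb -1.42, Egr1 -1.30, Fos -1.08, Ier2 -0.79, Jun -0.67, Fosl2 -0.63 and Junb -0.52. At P8 against P6 it was higher: Atf3 2.32, Fos 0.96, Jun 0.84, Junb 0.74 and Fosl2 0.61. At P8 against P1 it was higher for Atf3 (2.13) and lower for Egr1 (-1.48), Nr4a1 (-1.26) and Ier2 (-0.64). The value for Egr2 carries a standard error of 0.90 and that of Nr4a1 one of 0.29 at P6 against P1.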

How the results depend on the processing

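The members called at P1, 3 by genotype, were 5 with DESeq2 and 5 with unadjusted p, Fosb and Egr2 being added in both, and 2 with the P1 libraries alone (Egr1 and Egr2, so that 1 of the 3 was shared). At P6 the count of 5 fell to 1 (Egr2) with a fold change of at least 2. Leaving out each of the 12 libraries gave 2 to 4 at P1, 2 to 5 at P6 and 1 to 2 at P8. The counts of the day steps and interactions stayed within 1.5 times under all alternatives run: 9 to 10, 7 to 10, 5 to 7 and 3 to 5 for P6 minus P1 and P8 minus P6 in WT and the same steps in cKO, and 7 to 9, 5 to 6 and 3 to 6 for P6 against P1, P8 against P6 and P8 against P1. Signs changed in fits without 1 library for Egr2 at P8 (from -1.30 without P8 WT replicate 2 to 1.36 without P8 WT replicate 1, both called), Ier2 at P6 (-0.25 to 0.025 over these fits) and Fosl2 in P8 against P1 (-0.083 to 0.044), the last pair never called. Among interactions, Fosb and Junb at P6 against P1 and Ier2 at P8 against P1 lost their call in 4, 5 and 5 of these fits. No pairing by replicate number was visible, with correlations of deviations over all tested genes from -0.06 to 0.04 over 15 pairs of groups. These correlations cannot settle whether cultures were paired, which the sources used here do not state. The fit with a replicate block called 3, 5 and 1 members at P1, P6 and P8, and changed 1 call, Fosb in P8 against P1 (-0.93, adjusted p = 0.0335). DESeq2 size factors shifted the median of all genes by at most 0.03 and changed no call of a member. At P1, Fosb, Egr2 and Nr4a1 had 144 to 621 counts per library, and the part of counting error in their calls was not tested.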

Other observations

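Of 17 genes known as targets of AP-1 or EGR factors, 7 rose and none fell at P1 in cKO by edgeR or DESeq2 (1 was lower at an unadjusted p under 0.05), 7 rose and 3 fell at P6, and 11 rose and 1 fell at P8, with median log2 fold changes of 0.48, 0.51 and 1.37. Mmp12, a macrophage elastase gene, was at 4.20 and 6.57 CPM in P8 WT and 149 and 174 CPM in P8 cKO. Microglia markers were also at their highest sum in P8 cKO, where 6 of 9 rose and 1 fell. At P1 Mmp13 (log2 fold change 2.07) and Mmp9 (1.90) rose. At P6, when 5 members fell, Mmp3 (2.59) and Mmp12 (1.60) rose and Timp1 (-0.81) and Mmp13 (-0.71) fell, and at P8 Mmp3 fell (-1.24).

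Creb1, one of the upstream genes, was at 64.7 and 11.7 CPM in the P6 WT libraries, 50.5 and 12.9 in P6 cKO and 79.7 and 20.7 CPM in P8 cKO, and at 73.3 and 74.1 CPM in P1 WT. It was not called in any genotype comparison.

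Neuron markers (3 of 9 analysed here) summed to 70.6 to 192 CPM, oligodendrocyte lineage markers to 106 to 193 CPM, mural cell markers to 2270 to 4437 CPM and ependymal and choroid plexus markers to 31.0 to 233 CPM over the libraries. Hspb1 was higher in cKO at P1 (log2 fold change 1.13), P6 (0.79) and P8 (0.92).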
